A study of Rattus norvegicus with 48 samples.

Results

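Aldoa, Aldoc, Ankrd37, Bnip3 and Bnip3l, genes that respond to low oxygen in many cell types, were followed in cerebral endothelial cells (CECs) of fed and fasted rats. They were chosen by name, as 2 aldolases of glycolysis, 2 receptors of mitophagy and 1 ankyrin repeat protein. The choice was made with earlier results of these data known. All 5 were among the 13050 features tested, out of 32624 in the count files. CECs were sorted from the cerebral cortex of male Wistar-Han rats by removal of CD11b-positive cells and capture of CD31-positive cells. AL rats were fed ad libitum, whereas F1, F2 and F3 rats had gone without food for 1, 2 and 3 days. Each group had 3 samples from independent isolations, with i, j and k as their letters, and each sample pooled the cortices of several rats, so that differences between single animals were not measured. The 4 technical replicates of a sample were summed. The question put to the data was whether transcripts that read out hypoxia signalling change in CECs during a fast. None of the 5 genes was called different between any groups by the main test. The largest differences from AL rats were higher Ankrd37 and Bnip3 in F1 and F2 rats and lower Aldoc in F3 rats, at adjusted p-values of 0.11 or more for these days in edgeR's quasi-likelihood test.

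When oxygen falls, the hypoxia-inducible factors HIF-1 and HIF-2 escape hydroxylation and destruction, pair with ARNT and bind short hypoxia response elements (HREs) near their target genes. Many of the targets raise glucose uptake and glycolysis or slow mitochondrial use of oxygen, and brain endothelium, which expresses the glucose carrier GLUT1 in abundance, relies much on glycolysis. ALDOA, the aldolase of muscle and most tissues, and ALDOC, the aldolase of brain, split fructose 1,6-bisphosphate in glycolysis. BNIP3 and its relative BNIP3L, also called NIX, sit in the outer mitochondrial membrane and bind proteins of the LC3 family, which marks mitochondria for removal by autophagy. BNIP3L is also needed for the loss of mitochondria in maturing red blood cells. ANKRD37 is a small ankyrin repeat protein whose transcript is a common marker of HIF-1 activity. Bnip3 is also induced by FOXO3 in fasting muscle.

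The sequences before the transcription starts are shown because HIF binds HREs near its targets, and the 5 genes were chosen by name as such targets. An HRE core was taken as ACGTG or GCGTG on either strand, which reads CACGT or CACGC where the core lies on the strand opposite to the gene. RefSeq on build GRCr8, matched by gene ID, gave windows from 250 bases before to 10 bases after the start for 4 of the 5 genes, with 3 starts for Aldoa. Bnip3l had no entry. The windows with a core follow, 5′ to 3′ on the strand of the gene, with the cores in capitals. They lie at chr1:190836768-190837027 on the minus strand for start 3 of Aldoa, at chr10:63715294-63715553 on the plus strand for Aldoc, at chr16:53001257-53001516 on the plus strand for Ankrd37 and at chr1:203154953-203155212 on the minus strand for Bnip3.
Aldoa, start 3: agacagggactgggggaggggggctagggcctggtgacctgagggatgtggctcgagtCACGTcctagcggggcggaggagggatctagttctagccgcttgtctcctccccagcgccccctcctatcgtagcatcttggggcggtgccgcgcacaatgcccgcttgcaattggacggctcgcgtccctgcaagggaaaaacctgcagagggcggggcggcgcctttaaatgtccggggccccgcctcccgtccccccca
Aldoc: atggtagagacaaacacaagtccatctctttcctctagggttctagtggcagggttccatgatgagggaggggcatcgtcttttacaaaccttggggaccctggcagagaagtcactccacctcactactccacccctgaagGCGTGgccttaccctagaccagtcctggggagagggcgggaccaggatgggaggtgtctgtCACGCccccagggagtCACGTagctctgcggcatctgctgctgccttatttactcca
Ankrd37: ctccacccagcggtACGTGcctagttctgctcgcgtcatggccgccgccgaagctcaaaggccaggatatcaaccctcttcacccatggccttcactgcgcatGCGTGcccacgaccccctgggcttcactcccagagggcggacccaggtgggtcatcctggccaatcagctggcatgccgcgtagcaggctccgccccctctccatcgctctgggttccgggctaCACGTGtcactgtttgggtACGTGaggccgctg
Bnip3: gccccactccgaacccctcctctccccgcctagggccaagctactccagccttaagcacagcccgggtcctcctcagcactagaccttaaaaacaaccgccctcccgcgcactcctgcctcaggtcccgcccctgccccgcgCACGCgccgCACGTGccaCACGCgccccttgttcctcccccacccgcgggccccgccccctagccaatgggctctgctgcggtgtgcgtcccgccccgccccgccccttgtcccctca

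Ankrd37 held 5 core matches, Bnip3 4, Aldoc 3 and start 3 of Aldoa 1, while the windows of the other two starts of Aldoa held 0. A pair of matches in Ankrd37, at 23 and 22 bases before the start, and a pair in Bnip3, at 99 and 98 bases before it, overlap in the palindrome CACGTG, which is also the E-box bound by clock and MYC family proteins. Of all 33469 windows of 260 bases in the table, 37.8% held at least 1 match, 17.2% held ACGTG, 26.7% held GCGTG and 5.84% held the palindrome. As many matches as in Aldoc occurred in 6.63% of the windows, as many as in Bnip3 in 2.64% and as many as in Ankrd37 in 1.16%. Since the genes were chosen as HIF targets, these shares do not test that choice. A match is a string of letters and was not shown to be bound in these cells, and a window without one may have HREs elsewhere.

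**Figure D1:**
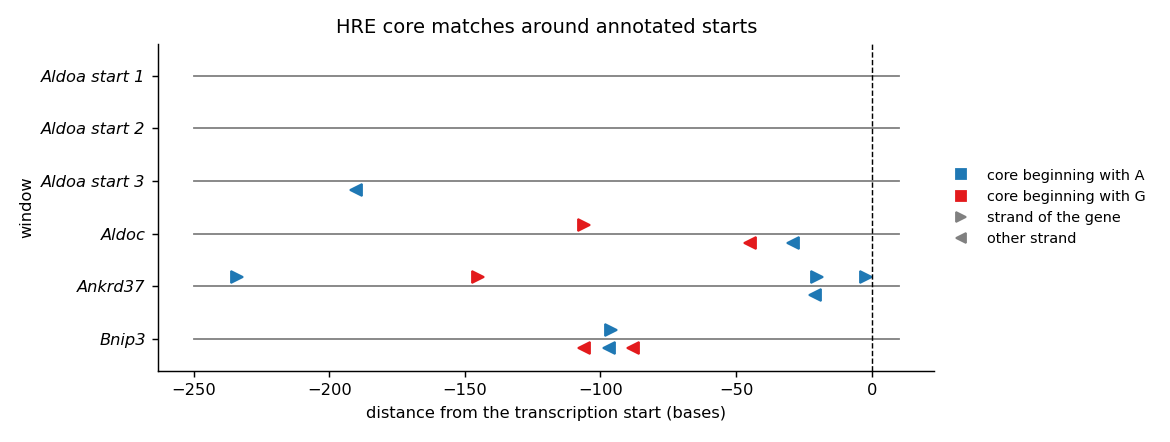
Position of each HRE core match in the 6 windows of 260 bases (vertical axis) as the distance in bases from the annotated start (horizontal axis, dashed line at the start). Blue triangles are ACGTG and red triangles GCGTG, pointing right on the strand of the gene and left on the other strand. Ankrd37 has 5 matches, Bnip3 4 within a short stretch, Aldoc 3 and Aldoa 1 in 1 of its 3 windows.

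Reads assigned to genes ranged from 20718644 to 25960874 per sample. Counts were divided by TMM-scaled library sizes and brought to the mean of these, and such normalized counts were compared between groups for 1 gene at a time, since transcript lengths were not used and levels of different genes are therefore not on 1 scale per length. The endothelial marker Pecam1, which encodes the CD31 used for sorting, had 31655 to 38791 normalized counts, whereas the summed counts of 4 microglial markers of 9 listed ranged from 38.1 to 113, Alas2 of red blood cells, 1 of 8 listed, from 36.1 to 110.3, and 4 mural cell markers of 11 listed from 2483 to 6871. The mural sum spread widely within AL (2701 to 6512), F2 (3662 to 6871) and F3 rats (2483 to 6484) and little within F1 rats (3020 to 3401). The median LFC of the 4 mural markers was 0.84 in F2 against F1, and edgeR called 0 of 4 there (1.43% of all genes). Apoe, listed as an astrocyte marker, had 35911 to 51818 normalized counts, a range that reached above that of Pecam1. No marker of neurons or oligodendrocytes had an identifier here. In sorted cells measured in bulk, fewer cells of a type and less RNA per cell cannot be told apart. In F1 sample k, technical replicate d has a title of that sample and a treatment label of a fast of 2 days. It was kept in F1, and leaving it out turned the sign of 1 log2 fold change of the 5 genes, that of Bnip3l in F2 rats, from -0.00024 to 0.00034.

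The glycolytic gene Aldoa (ENSRNOG00000052802) ranked 213 among the 13050 features by its mean of 15166 ± 1634 normalized counts (SD, n = 12 samples). In AL rats it had 15184, 15957 and 13834 normalized counts in samples i, j and k. In F1 rats it had 14230, 17052 and 16738, and in F2 rats 14411, 18614 and 15116. In F3 rats it had 13114, 13790 and 13948. F2 sample j was the highest of the 12 samples, the ranges of F1, F2 and AL rats overlapped, and F3 samples were tight and lay below every F1 and F2 sample. The order of the means was F2, F1, AL and F3, and the first 2 differed by far less than their SDs. The Log2 fold change (LFC) against AL was 0.09 ± 0.10 (SE) at F1, 0.10 ± 0.10 at F2 and -0.14 ± 0.10 at F3. Against F2, F3 rats had an LFC of -0.24 ± 0.10, a level 15.1% lower, with an unadjusted p of 0.040 and an adjusted p of 0.20 in edgeR's quasi-likelihood test. Aldoa has processed copies in rodent genomes, and since reads that matched more than once had been removed before counting, its level is uncertain to that extent.

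Aldoc (ENSRNOG00000011452), the aldolase with a smaller number of reads here, had a mean of 1850 ± 272 normalized counts (SD, n = 12) and rank 2657. In AL rats the 3 samples had 2155, 1956 and 1825 normalized counts. In F1 rats they had 1702, 1950 and 2277, and in F2 rats 1530, 2239 and 1864. In F3 rats all 3 samples fell in the narrow range of 1545 to 1588. F3 samples were below every AL and F1 sample, while F2 sample i was lower still, at 1530. The means were ordered AL, F1, F2 and F3, and the first 3 differed by less than the SD of any of them. The LFC was -0.34 ± 0.13 in F3 rats, with a 95% confidence interval from -0.61 to -0.06, that is 20.9% below AL rats. The unadjusted p was 0.020 and the adjusted p 0.11, so Aldoc was not called in F3 rats by edgeR's quasi-likelihood test. With only the samples of AL and F3 rats in the model the adjusted p was 0.010, and without F2 sample j it was 0.040, and over all alternatives it ranged from 0.010 to 0.30. In F1 and F2 rats the LFCs were -0.0021 and -0.08, both with an SE of 0.13, and both turned positive without 1 or more single samples.

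Aldoc is also a marker of astrocytes. Of 10 other astrocyte markers, Apoe and Atp1b2 could be read. All listed genes with an identifier here had reads in every sample, so a marker at 0 could not have been read. Their summed level ranged from 42639 to 43198 normalized counts at AL, from 36718 to 48497 at F1, from 41179 to 52917 at F2 and from 38752 to 43382 at F3. Apoe made up most of this sum, with a mean of 41907 in AL rats against 1042 for Atp1b2. Atp1b2 alone spread widely, from 623 to 1638 in AL, 794 to 825 in F1, 1100 to 1609 in F2 and 599 to 1441 in F3 rats. Neither passed the test in F3 against AL, with an LFC of -0.09 for Apoe (adjusted p = 0.71) and of -0.02 for Atp1b2 (adjusted p = 0.98). The part of astrocyte RNA in the values of Aldoc was not tested.

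Ankrd37 (ENSRNOG00000031335), the marker transcript of HIF-1 activity, was the least counted of the 5 genes, with 127 to 246 reads per sample and rank 8416. AL samples i, j and k had 149, 184 and 141 normalized counts. F1 samples had 239, 187 and 236, F2 samples 157, 244 and 234, and F3 samples 204, 152 and 185. All F1 samples lay above the AL samples, though F1 sample j (187) was close to AL sample j (184), and F2 sample i and F3 sample j lay within the AL range. The means fell in the order F1, F2, F3 and AL, with neighbours closer than the SD of either group except F2 and F3, which differed by less than the SD of F2 and more than that of F3. The LFC was 0.48 ± 0.18 in F1 rats, a level 39.7% above AL rats (95% confidence interval 6.83% to 82.7%), with an unadjusted p of 0.018 and an adjusted p of 0.14. In F2 rats it was 0.42 ± 0.18 with an adjusted p of 0.34, and in F3 rats 0.19 ± 0.18 with an adjusted p of 0.57. Over the alternatives, the adjusted p for F1 ranged from 0.079 to 0.32 and the LFC from 0.41 to 0.60. At these read numbers the confidence intervals of Ankrd37 were the widest of the 5 genes.

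The mitophagy receptor gene Bnip3 (ENSRNOG00000017243) had 307 to 445 reads per sample and rank 7046. AL samples i, j and k had 319, 321 and 341 normalized counts. F1 samples had 367, 396 and 413, F2 samples 395, 441 and 369, and F3 samples 390, 330 and 360. All F1 and F2 samples were above all AL samples, and of the F3 samples only j lay within the AL range. The means were ordered F2, F1, F3 and AL, of which F2 and F1 differed by less than their SDs (LFC 0.04 ± 0.10). LFCs against AL were 0.26 ± 0.10 at F1, 0.30 ± 0.10 at F2 and 0.14 ± 0.10 at F3. In F2 rats Bnip3 was 22.8% higher (95% confidence interval 6.21% to 42.0%), with an unadjusted p of 0.0090 and an adjusted p of 0.21. In F1 rats it was 19.8% higher, with an unadjusted p of 0.018 and an adjusted p of 0.14. For the mean of the 3 fasted groups against AL the LFC was 0.23 ± 0.08, and its adjusted p of 0.097 was the lowest that any of the 5 genes reached in the main test. Over the alternatives this p ranged from 0.074 to 0.28.

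Bnip3l (ENSRNOG00000009820), the second mitophagy receptor gene, ranked 899 with a mean of 4862 ± 247 normalized counts (SD, n = 12) and varied least, with a coefficient of variation between 0.682% and 2.42% within groups. AL samples had 4936, 5146 and 5151 normalized counts. F1 samples had 4709, 4644 and 4838, F2 samples 4957, 5134 and 5139, and F3 samples 4538, 4554 and 4598. F1 and F3 samples were below all AL and F2 samples, F3 samples were below all F1 samples, and F2 samples lay within the range of the AL samples. The order of the means was AL, F2, F1 and F3, with 5078 normalized counts in AL and 5077 in F2 rats. LFCs against AL were -0.10 ± 0.06 at F1, -0.00024 ± 0.06 at F2 and -0.15 ± 0.06 at F3. In F3 rats Bnip3l was thus 10.1% lower (95% confidence interval from -17.8% to -1.73%), with an unadjusted p of 0.022 and an adjusted p of 0.12 in edgeR's quasi-likelihood test. DESeq2's Wald test gave an adjusted p of 0.018 for this comparison and of 0.022 for F3 against F2, so Bnip3l was the 1 of the 5 genes that this test called in either. In edgeR the F3 call appeared when F2 sample j was left out (adjusted p = 0.0498). Alas2, the red blood cell transcript, had 36.7 to 110.3 normalized counts in AL rats and 37.1 to 53.6 in F3 rats, and its part in the values of Bnip3l was not tested.

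**Figure D2:**
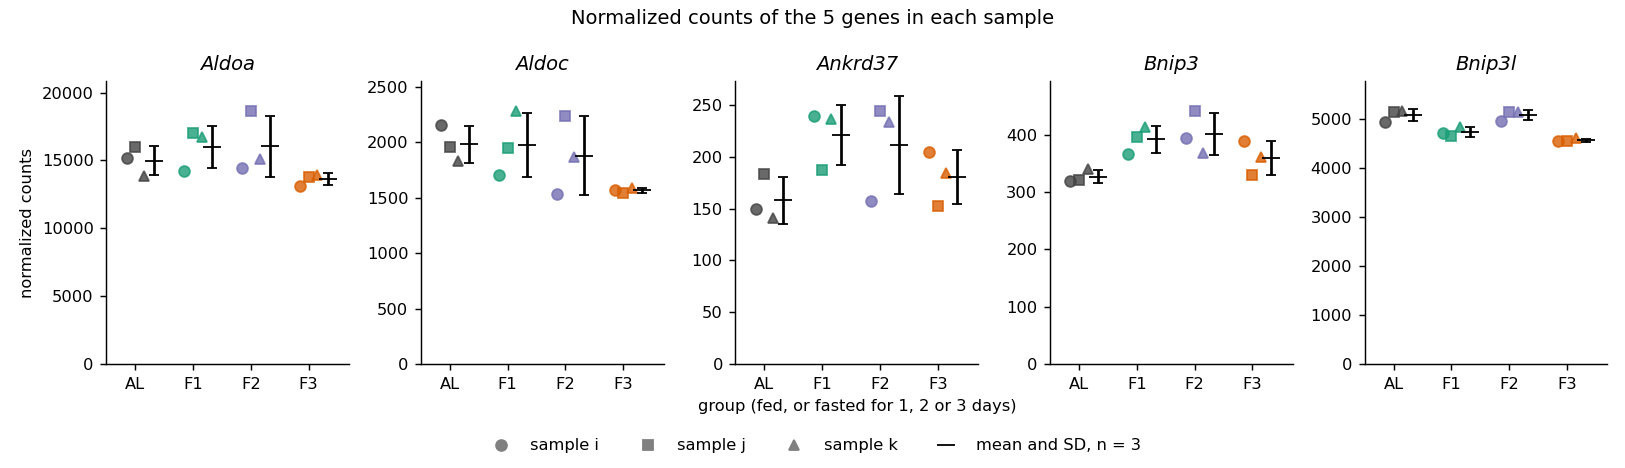
Normalized counts (vertical axis, from 0, 1 panel per gene) of each sample in AL, F1, F2 and F3 rats, with the shape of a point giving the sample letter and the black mark the mean ± SD (n = 3). Bnip3 in F1 and F2 rats lies above the AL samples and Bnip3l in F1 and F3 rats below them, Aldoc in F3 rats lies between 1545 and 1588, and F2 sample j is the highest sample for Aldoa, Ankrd37 and Bnip3.

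The number of the 5 genes that passed each rule was read against the share of all genes that did so. In F1 against AL, edgeR called 0 of 5 (6.56% of all genes) and DESeq2 0 of 5 (10.8%). Ankrd37 and Bnip3 had an unadjusted p under 0.05 there, 2 of 5 against 20.6%, and Ankrd37, Bnip3 and Bnip3l did not overlap between the groups, 3 of 5 against 28.7%. For F2 against AL the calls were 0 of 5 in edgeR (0.858%) and 0 of 5 in DESeq2 (3.26%), with 2 of 5, again Ankrd37 and Bnip3, at an unadjusted p under 0.05 (12.8%) and 1 of 5, Bnip3, without overlap (15.5%). F3 against AL gave 0 of 5 in edgeR (12%) and 1 of 5 in DESeq2 (15.3%). Aldoc and Bnip3l had an unadjusted p under 0.05 (2 of 5, against 26%), and the same pair did not overlap (2 of 5, against 35.6%). The median LFC of the 5 genes was 0.09 in F1, 0.10 in F2 and -0.14 in F3 rats, beside medians over all genes of -0.0043, -0.0085 and -0.0053.

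Between the fasted groups, F2 against F1 gave 0 of 5 in edgeR (1.43%), 0 of 5 in DESeq2 (5.34%) and 0 of 5 at an unadjusted p under 0.05 (17.3%), and only Bnip3l was without overlap (1 of 5, against 21.8%). All 5 LFCs were negative in F3 against F2, from -0.26 ± 0.13 for Aldoc to -0.15 ± 0.06 for Bnip3l, with a median of -0.23 beside -0.0078 over all genes. None was called by edgeR (0 of 5, against 5.94%), 1 by DESeq2 (10.6%), 2, Aldoa and Bnip3l, had an unadjusted p under 0.05 (22%), and the same 2 did not overlap (26.8%). In F3 against F1 all 5 LFCs were negative again, with a median of -0.23 beside -0.0017 over all genes. The 2 comparisons share the F3 samples, and edgeR called no gene of any kind in F3 against F1 (0% of genes), against 0.204% in DESeq2, which called 0 of 5. Aldoa and Aldoc had an unadjusted p under 0.05 (2 of 5, against 4.44%), with adjusted p-values of 1.00, and Aldoa, Aldoc and Bnip3l did not overlap (3 of 5, against 13%). For the mean of F1, F2 and F3 against AL, 0 of 5 were called by edgeR (8.41%) and 0 of 5 by DESeq2 (12.4%), 2 of 5 had an unadjusted p under 0.05 (22.5%), and 0 of 5 kept all 9 fasted samples apart from the AL samples (5.95%).

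**Figure D3:**
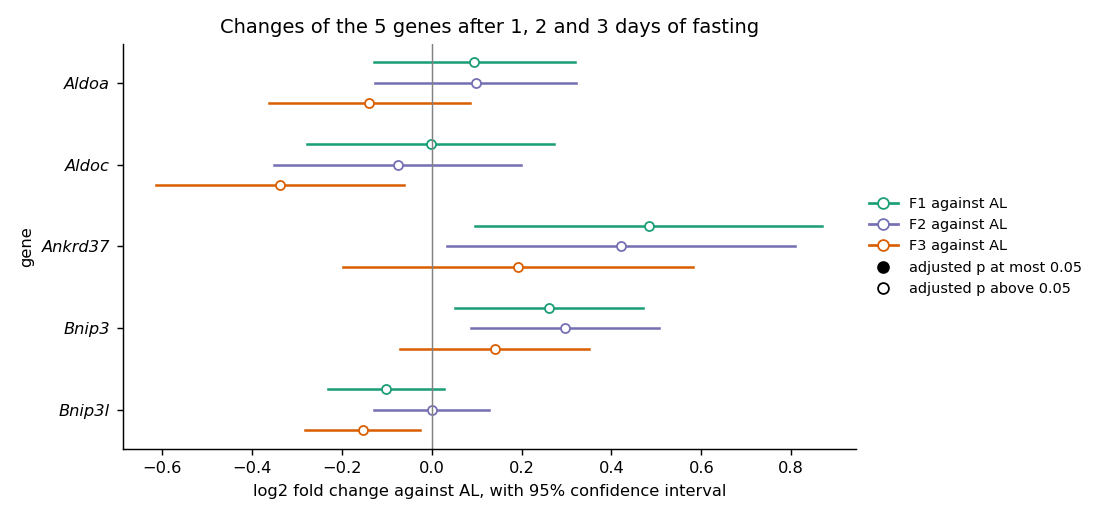
LFC against AL rats (horizontal axis, log2) of the 5 genes (vertical axis) in F1, F2 and F3 rats, with 95% confidence intervals from edgeR's quasi-likelihood fit. All points are open, since no adjusted p was 0.05 or less. The intervals of Bnip3 and Ankrd37 in F1 and F2 rats lie above 0 and those of Aldoc and Bnip3l in F3 rats below 0 before adjustment.

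The read ratio of the 2 mitophagy receptors kept all fasted samples apart from the AL samples. A ratio of the reads of 2 genes in the same sample does not depend on library size, so it was compared over samples. AL samples i, j and k had 15.5, 16.0 and 15.1 Bnip3l reads per Bnip3 read. F1 samples had 12.8, 11.7 and 11.7, F2 samples 12.6, 11.6 and 13.9, and F3 samples 11.6, 13.8 and 12.8. All 9 fasted samples lay below all 3 AL samples. Of all single genes, 5.95% kept the fasted samples apart from the AL samples, and the share of gene pairs whose ratio does so was not computed. The pair was chosen with earlier results of these data known, which an adjustment over 2 ratios does not cover. The log2 ratio of Bnip3 to Bnip3l was 0.31 higher in fasted than in AL rats, a 1.24-fold difference (exact permutation test over 220 splits, two-sided p = 0.0045, the smallest this design allows, adjusted p over the 2 ratios 0.0091). By day, the difference was 0.36 in F1, 0.29 in F2 and 0.29 in F3 rats, each with an exact permutation p of 0.10, the smallest that 3 against 3 samples allow. The ratio depends on both genes. The LFC of Bnip3 against AL was 0.26 in F1, 0.30 in F2 and 0.14 in F3 rats. That of Bnip3l was -0.10 in F1, -0.00024 in F2 and -0.15 in F3 rats. EdgeR called neither gene on its own in the main test, while DESeq2 called Bnip3l in F3 rats.

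The ratio of the aldolases differed less. AL samples had 7.05, 8.16 and 7.58 Aldoa reads per Aldoc read, F1 samples 8.36, 8.74 and 7.35, F2 samples 9.42, 8.31 and 8.11, and F3 samples 8.38, 8.92 and 8.78. F3 samples were above all AL samples, whereas F1 sample k and F2 sample k lay in the AL range. The log2 ratio was 0.16 higher in fasted rats, with an exact permutation p of 0.05, right at the threshold, and an adjusted p of 0.05 over the 2 ratios. Leaving out single samples gave p-values up to 0.22, the highest without AL sample i.

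**Figure D4:**
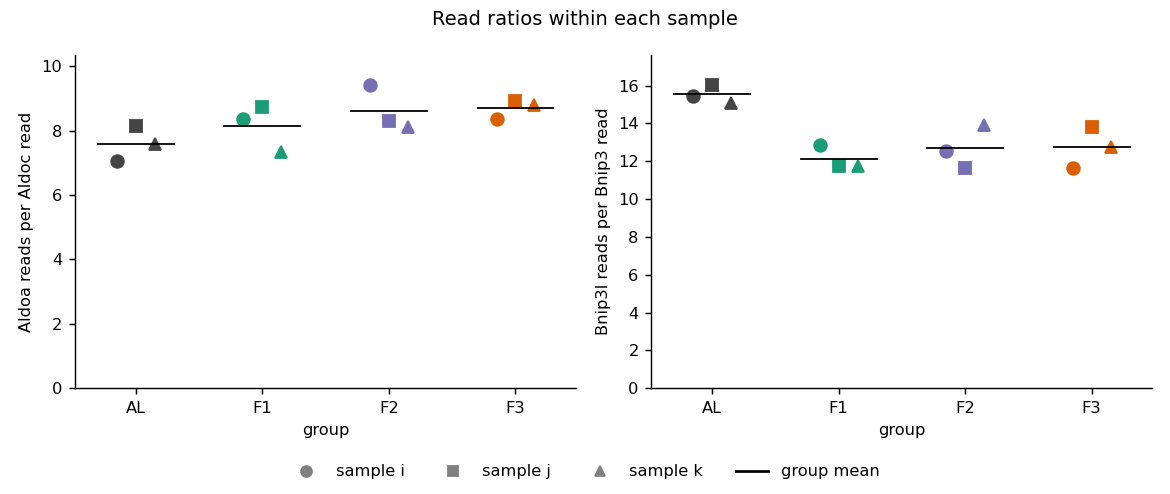
Reads of Aldoa per read of Aldoc (left) and of Bnip3l per read of Bnip3 (right) in each sample (vertical axes from 0), by group, with the shape of a point giving the sample letter and the line the group mean. On the right all fasted samples, from 11.6 to 13.9, lie below the AL samples, from 15.1 to 16.0. On the left the groups overlap except F3 and AL.

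Other genes of the same pathways came from lists, of which only those with an identifier here could be read. Nearly all of those have names early in the alphabet or are transporters. Of 10 genes of the HIF pathway itself, 2 were tested, Arnt, which encodes the partner of the HIF alpha subunits, and its relative Arnt2, and neither was called in any comparison by edgeR or DESeq2. Arnt had 2123 ± 253 normalized counts in AL, 2102 ± 76.9 in F1, 2062 ± 380 in F2 and 2165 ± 45.5 in F3 rats (SD, n = 3 each). Of 27 other HIF targets, 7 were tested. By edgeR 2 of 7 rose and 0 fell in F1 rats, where 6.56% of all genes were called. None was called in F2 rats (0.858% of all genes), and 2 rose and 1 fell in F3 rats (12%). The median LFCs were 0.10, 0.18 and 0.21, beside -0.0043, -0.0085 and -0.0053 over all genes.

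Both risers are targets of more than HIF. Slc2a1, which encodes the glucose carrier GLUT1, had 257320 to 309123 normalized counts in AL rats, 373387 to 392818 in F1, 355198 to 389016 in F2 and 401902 to 416026 in F3 rats, so that no fasted sample overlapped the AL samples. Its LFC was 0.43 ± 0.09 in F1 rats (adjusted p = 0.011), 0.40 ± 0.09 in F2 rats (adjusted p = 0.0503, not called by edgeR, and 1.6e-05 in DESeq2, which called it) and 0.52 ± 0.09 in F3 rats (adjusted p = 0.0019, edgeR), and the F1 call was lost without F1 sample j (adjusted p = 0.055). Angptl4, an inhibitor of lipoprotein lipase that PPARs also induce, had 9118 to 11616 normalized counts in AL rats, 14328 to 16578 in F1, 11789 to 12243 in F2 and 14854 to 16990 in F3 rats. It rose by an LFC of 0.49 ± 0.10 in F1 and 0.58 ± 0.10 in F3 rats (adjusted p = 0.011 and 0.0021), and in F2 rats its LFC was 0.15 ± 0.10. Without F1 sample j the F1 call of Angptl4 was lost too (adjusted p = 0.069). Apln, the gene of the vasoactive peptide apelin, fell to 116 to 180 normalized counts in F3 rats from 245 to 311 in AL rats (LFC -0.96 ± 0.24, adjusted p = 0.023), a call lost without AL sample j or k or F3 sample i or j. Adm encodes the dilator peptide adrenomedullin and Ak4 a mitochondrial adenylate kinase, and both are common HIF targets. Neither they nor Adora2b were called in any comparison by the main edgeR test or DESeq2. Ak4 came near in F3 against F2, with an LFC of 0.42 ± 0.14 and no overlap of samples. Its adjusted p there was 0.090 in the main edgeR test, 0.0500004 in DESeq2 and 0.037 at the lowest among the alternative edgeR fits. Bhlhe40, a transcriptional repressor, was not called against AL by the main edgeR test, and DESeq2 called it lower in F1 rats (LFC -0.27, adjusted p = 0.038). Among 5 of 10 endothelial markers with an identifier, Slc2a1 rose and Slco1a4, an organic anion carrier, fell in F1 and F3 rats, from 77320 to 84982 normalized counts in AL to 57347 to 68359 in F1 and 56384 to 66826 in F3 rats, and edgeR called none of the 5 in F2 rats. The F1 call of Slco1a4 was lost without AL sample i or k or F1 sample j or k (adjusted p from 0.075 to 0.16).

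Slc2a1 was the 1 gene with an identifier among 21 other genes of glucose uptake and glycolysis. The aldolases are thus set here beside the entry of glucose and not beside the other enzymes of the pathway, which were not analysed here.

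Of 25 other genes of autophagy and mitophagy, 9 were tested. By edgeR 0 of 9 rose and 1 fell in F1 rats, where 6.56% of all genes were called. None was called in F2 rats (0.858% of all genes), and 1 rose and 1 fell in F3 rats (12%). The median LFCs were 0.04, 0.03 and 0.04, beside -0.0043, -0.0085 and -0.0053 over all genes. Bcl2l13, a further receptor of mitophagy in the outer mitochondrial membrane, had 546 to 646 normalized counts in AL rats, 445 to 504 in F1, 541 to 573 in F2 and 466 to 494 in F3 rats. It fell by 0.30 ± 0.08 on the log2 scale in F1 rats (adjusted p = 0.0498) and by 0.29 ± 0.08 in F3 rats (adjusted p = 0.040), with no overlap between F1 or F3 and AL samples, and the F1 call was lost in 11 of 12 omissions of 1 sample and the F3 call in 6 of 12, and both in the model with the sample letter as a block (adjusted p = 0.074 and 0.058). Bnip3l was likewise lower than in AL rats in F1 and F3 and not in F2 rats, but edgeR did not call these differences in the main test and DESeq2 called the one in F3 rats. Atg14, a subunit of the lipid kinase complex that starts autophagosomes, rose in F3 rats from 362 to 384 in AL rats to 464 to 554 normalized counts (LFC 0.40 ± 0.09, adjusted p = 0.013). That call was lost without AL sample i or F3 sample j (adjusted p = 0.054 and 0.064). Ambra1, Atg5, Atg7, Atg9a, Atg12, Atg13 and Becn1, of the core machinery, were not called against AL by the main edgeR test. DESeq2 called Atg12 higher in F1 rats (LFC 0.20, adjusted p = 0.028). Of the BNIP family, Bnip1, Bnip2 and Bnipl were tested and none was called by edgeR or DESeq2, with Bnip2 at 2733 to 2988 normalized counts in AL rats and 3016 to 3290 in F3 rats.

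**Figure D5:**
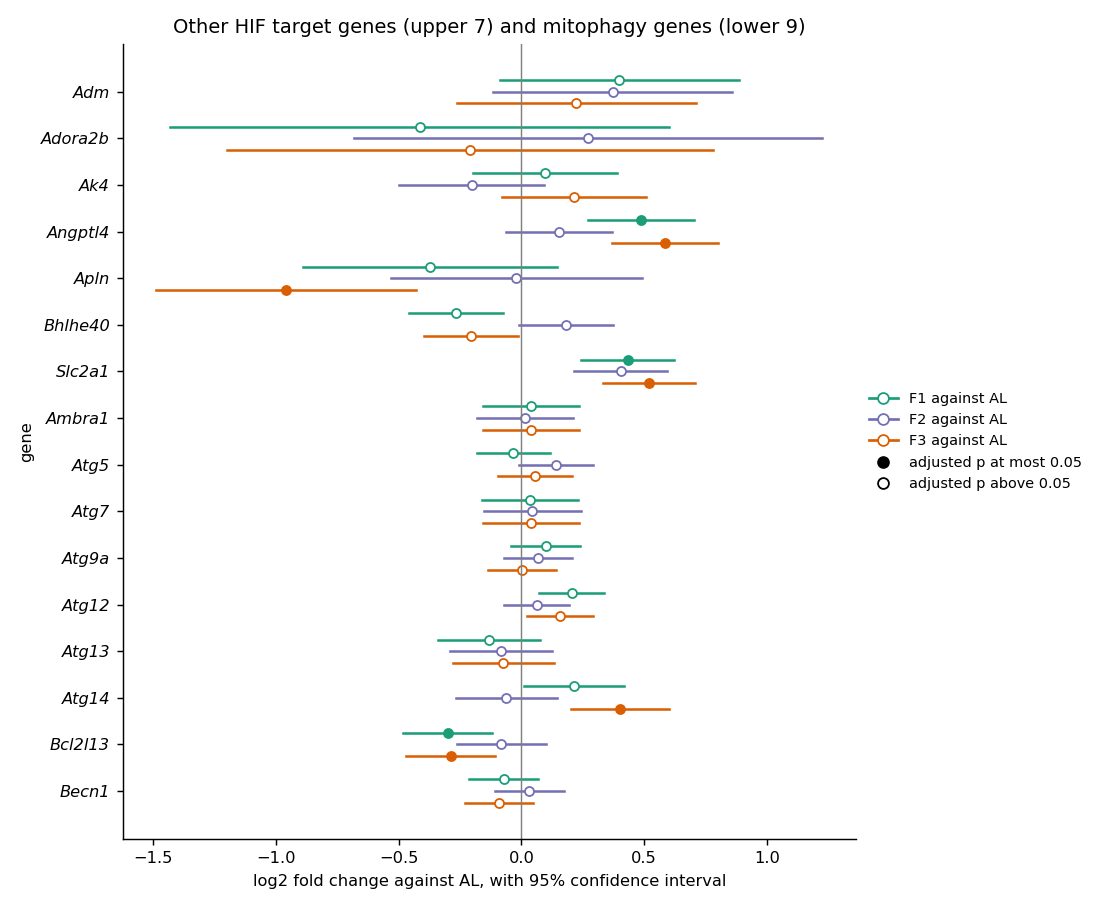
LFC against AL rats (horizontal axis, log2) with 95% confidence intervals for the 7 other HIF targets and the 9 other autophagy and mitophagy genes that had an identifier (vertical axis), in F1, F2 and F3 rats. Filled points passed an adjusted p of 0.05. Slc2a1 and Angptl4 are filled above 0 in F1 and F3 rats, Apln below 0 in F3, Bcl2l13 below 0 in F1 and F3, and Atg14 above 0 in F3 rats.

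The genes whose log2 CPM ran most like that of each member over the 12 samples were picked among 1259 others with a symbol and a mean of at least 100 normalized counts, by Pearson's r. The 12 points share library and group, and these values are a description. Symbols were known only for part of the genes, nearly all of them early in the alphabet or transporters. For Aldoa they were Arf5 (r = 0.92), a small GTPase of membrane traffic, and Arhgdia (r = 0.89). For Aldoc they were Blvra (r = 0.84), which encodes biliverdin reductase, and Brd7 (r = 0.83), a bromodomain protein. Ankrd37 ran most like B3gnt7 (r = 0.85), a glycosyltransferase, and Arpc3 (r = 0.82), a subunit of the Arp2/3 complex of actin. Bnip3 ran most like Acads (r = 0.93), the short-chain acyl-CoA dehydrogenase of mitochondrial fatty acid oxidation, and like Ccdc107 (r = 0.90). Acads had mean normalized counts of 513 in AL, 669 in F1, 699 in F2 and 625 in F3 rats. The main edgeR test did not call it (adjusted p = 0.067, 0.10 and 0.13 in F1, F2 and F3 rats), whereas the authors, who used DESeq2, reported its transcript as raised by fasting. Bnip3l ran most like Acad11 (r = 0.92), another acyl-CoA dehydrogenase, and Afap1l2 (r = 0.90), an adaptor of actin and SRC signalling. By edgeR both were called lower in F1 and F3 rats and not in F2 rats, Afap1l2 with LFCs of -0.56, -0.24 and -0.82 and Acad11 with -0.37, -0.18 and -0.49 in F1, F2 and F3 rats.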

How the data were processed

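RNA was sequenced by the authors from sorted CECs of 12 biological samples, 3 per group, each with 4 technical replicates. The deposited values are raw counts per gene, made by the authors by trimming and filtering reads, aligning them with STAR to Rnor_6.0 (Ensembl annotation), removing reads that matched more than once and counting on exons with HTSeq 0.5.3, with bcl2fastq 2.18.0.12 for demultiplexing per the labels. The strand setting of the counting is not given in the sources used here, so overlapping genes on opposite strands may share reads.

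Technical replicates were summed. Features with at least 1 read in each sample were tested by quasi-likelihood in edgeR 4.0.16 (R 4.3.3, robust estimation, TMM scaling) in 1 model of the 4 groups, with Benjamini-Hochberg adjustment over all 13050 features and a threshold of 0.05. The test was first tried on simulated data. Depth was 20718644 to 25960874 assigned reads per sample. Ratios were compared by exact permutation. Log2 CPM used a prior count of 2. Nothing states that the letters i, j and k pair samples of different groups. Between groups, the deviations of samples with the same letter correlated at -0.02 to 0.14, and those with other letters at -0.19 to 0.20. Samples were therefore not paired in the main test. Alternatives were DESeq2 1.42.0, its size factors, total counts, upper-quartile scaling, other filters, only the samples compared, the letter as a block, omission of each sample or of the technical replicate whose labels conflict (F1 sample k, replicate d), and a stricter threshold of 0.01. A fit without robust estimation was added after seeing the data.

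Symbols came only from identifier columns of the study's supplementary tables, which paired 2043 of the tested features with a symbol. These were nearly all names early in the alphabet, up to about Ccng1, or transporters. Listed genes with other names could therefore not be read, and the genes read are no even sample of the lists. The members, lists and comparisons were chosen with earlier results of these data known. Named in every comparison were the 5 genes. From each list, genes called against AL were named, at most 6 a list, and the 2 genes most like each member. Bhlhe40 was named after its values had been seen. A listed astrocyte marker is not reported here.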

Additional observations from a re-analysis of the deposited data

Results flagged for a closer look

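Among the listed genes, 4 differed between days of fasting by edgeR's quasi-likelihood test, which none of the 5 main genes did. Of the 7 other HIF targets, 1 was called higher in F2 against F1, and 1 higher and 2 lower in F3 against F2. Of the 9 autophagy and mitophagy genes, 0 were called in F2 against F1 and 1 was called higher in F3 against F2. Over all genes, edgeR called 1.43% in F2 against F1, 5.94% in F3 against F2 and 0% in F3 against F1. Bhlhe40, a HIF target that is also a clock repressor, was 0.45 ± 0.09 higher on the log2 scale in F2 than in F1 rats (adjusted p = 0.031) and had an LFC of -0.39 ± 0.09 in F3 against F2 rats (adjusted p = 0.024), with 11733 to 13148 normalized counts in F1, 16776 to 17390 in F2 and 12819 to 13187 in F3 rats. Between F2 and F3 rats, Angptl4 had an LFC of 0.43 ± 0.10 (adjusted p = 0.025), Atg14 of 0.46 ± 0.09 (adjusted p = 0.014) and Apln of -0.94 ± 0.24 (adjusted p = 0.041). The Apln difference was lost in 7 of 12 omissions of 1 sample, that of Angptl4 in 4 and that of Atg14 in 1, while those of Bhlhe40 were lost in 7 and 3. With only the samples compared, edgeR's adjusted p was 0.067 for Atg14, 0.077 for Apln and 0.059 for Bhlhe40 in F2 against F1. It was 0.062 for Apln with no filter and 0.0505 for Bhlhe40 in F2 against F1 with the letter as a block.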

How the results depend on the processing

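No count of called genes among the 5 differed from 0 in the main test, and in F1 and F2 against AL, F2 against F1, F3 against F1 and the mean of the fasted groups it was 0 under every alternative. In F3 against AL it was 1 with DESeq2's Wald test (Bnip3l), 1 with only the samples compared (Aldoc) and 0 to 2 with 1 sample left out, the 2 being Aldoc and Bnip3l without F2 sample j (adjusted p = 0.040 and 0.0498). In F3 against F2 it was 1 with DESeq2 (Bnip3l). The sample letter as a replicate block left it at 0 in each comparison, and 1 of 12 samples correlated best with its own letter throughout. For the Bnip3 to Bnip3l difference, the full separation of the groups fixes the outcome of each omission, so the omissions say nothing of its stability. The Aldoa to Aldoc difference (p = 0.05) lost it with permutation within letters as a replicate block (0.16, exact permutation p = 0.078) and in 10 of 12 omissions of 1 sample, with differences from 0.11 to 0.21 over the omissions.

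LFCs near 0 changed sign. For Bnip3l in F2 against AL, DESeq2's size factors gave 0.0025, upper-quartile scaling 0.022, DESeq2's Wald test 0.0027, no filter 0.011, a filter of 10 reads 0.00065, only the samples compared 0.0024, the fit without technical replicate d of F1 sample k 0.00034 and single omissions -0.018 to 0.017. Aldoc in F1 against AL turned to 0.0063 with no filter and ranged from -0.12 to 0.10 over omissions, Aldoa in F2 against F1 to -0.00011 with the block (-0.12 to 0.075) and Aldoa in the mean of fasted groups to -0.028 with total counts (-0.038 to 0.059). Omissions also turned Aldoa in F2 against AL (-0.022 to 0.17), Aldoc in F2 against AL (-0.22 to 0.052) and F2 against F1 (-0.22 to 0.054), and Ankrd37 (-0.18 to 0.11) and Bnip3 (-0.037 to 0.093) in F2 against F1. Of 800 alternative values of the 5 genes' LFCs, 767 kept direction and call. At 3 samples per group and 127 to 246 reads, the interval of Ankrd37 in F1 rats spanned 6.83% to 82.7%.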
